A study of Mus musculus with 6 samples.

Results

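The gene encoding p53, Trp53, and 9 genes that p53 activates directly (Cdkn1a, Mdm2, Ccng1, Bax, Zmat3, Phlda3, Eda2r, Trp53inp1 and Bbc3) were followed in cardiomyocytes (CMs) exposed to α-ketoglutarate. They were chosen by name as standard readouts of the p53 response, not by a threshold on their values but with earlier results of these data known, and all 10 are among the 20066 genes of the expression table. The 6 RNA-seq libraries came from C57BL/6 mouse CMs of postnatal day 0 to 1, with no genetic change, after 96 h in culture. The 3 control libraries were from cells given the solvent DMSO, and the 3 αKG libraries from cells given a cell-permeable form of α-ketoglutarate at 100 µM, a Krebs cycle intermediate that dioxygenases, including histone demethylases, use as a cosubstrate. The concentration is that of the labels, and the study's methods name a higher one for its cultures of neonatal CMs. The question put to these genes is whether a DNA damage response accompanied the higher cycling that the study reports for αKG-treated CMs. Per the methods, a sample of neonatal CMs is a single isolation from pooled hearts, while the labels of these libraries only number the replicates, so the p-values measure the spread between these libraries, which may be technical.

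p53 is a transcription factor that is made continuously and destroyed just as fast, because MDM2, itself the product of a p53 target gene, marks it for degradation. DNA damage activates the kinases ATM, ATR and CHK2, which act on p53 and on the MDM2 family, and p53 protein then accumulates and switches on genes that halt the cell cycle, repair DNA or start apoptosis. Since p53 is controlled mostly as a protein, its activity is usually read from the mRNAs of its targets and not from Trp53 mRNA. p53 binds as a tetramer to an element made of 2 copies of a 10-letter half-site, each with a 4-letter core that begins with C and ends with G, and the consensus reads the same on both strands.

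Promoter sequences are shown because p53 acts on its targets through such elements, although they were not used to choose the genes. RefSeq windows (GRCm38.p6, the strand of the gene) that run from 250 bases before to 50 bases after an annotated start were found for 8 of the 10 genes, in 11 windows. An exact p53 half-site consensus, searched on both strands, lay in the windows of 5 of these 8 genes (Cdkn1a, Mdm2, Ccng1, Bax and Trp53), whereas 8.36% of all 32851 windows and 9.55% of all 27025 genes with a window held one. A full 20-letter element with adjoining half-sites, intact cores and at most 3 differences from the consensus lay in the windows of 3 of the 8 (Cdkn1a, Bbc3 and Trp53), against 0.572% of all windows and 0.673% of all genes. The Cdkn1a element had 1 difference, a distance that 0.0548% of windows, 18 in number, met. Each match describes letters, not binding, and the windows do not cover elements in introns or farther upstream. The first sequence is the Cdkn1a window with the matches, up to its annotated start (chr17:29090729-29090978, plus strand). A single half-site and the full element are in capitals. The window of another annotated Cdkn1a start (chr17:29093519-29093768 up to that start) held no match.

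Cdkn1a window: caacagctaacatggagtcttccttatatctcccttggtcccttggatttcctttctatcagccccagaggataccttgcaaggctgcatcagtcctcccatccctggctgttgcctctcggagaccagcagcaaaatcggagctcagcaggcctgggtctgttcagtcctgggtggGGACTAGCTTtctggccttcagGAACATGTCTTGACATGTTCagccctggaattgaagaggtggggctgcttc

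The full elements of the other 2 genes and the half-sites of 3 more are given with 5 flanking bases on each side, the match in capitals. The Bbc3 element (chr7:16309486-16309505, plus strand) and the Trp53 element (chr11:69580284-69580303, plus strand) each had 3 differences. The windows of other annotated Bbc3 starts (chr7:16310011-16310260 and chr7:16310181-16310430 up to those starts) held no match. The half-sites lie at chr10:117710935-117710944 for Mdm2, chr11:40755462-40755471 for Ccng1 and chr7:45467090-45467099 for Bax, all on the minus strand, 176 to 201 bases before the start.

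Bbc3 element: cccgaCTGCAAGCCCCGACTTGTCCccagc
Trp53 element: cggaaGGACTTGCCCTTACTTGTTAtggcg
Mdm2 half-site: gatagGAACTTGCCTagcga
Ccng1 half-site: tgcccGGGCAAGCCTtggca
Bax half-site: atcccAGGCAAGCTTtgaac

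The values are read counts that the authors normalized for library size and rounded, and each is given below as a normalized count. A gene is said to be called where limma, run on log2(value + 1), gave an adjusted p under 0.05 over all 20066 genes. The estimated depth was 3726112 to 4428000 reads in genes per library, so counting error was small for Ccng1 and large for Bax and Bbc3. The αKG libraries were not alike. αKG replicate 3 correlated more closely with the DMSO libraries (r = 0.977 to 0.980 across genes) than with αKG replicates 1 and 2 (0.962 and 0.963), and results that rest on it are given with and without it. All 8 CM markers were detected, with summed values of 20178 to 20823 in DMSO and 24399, 23737 and 20859 in αKG replicates 1, 2 and 3, and none of the 8 passed the test. Summed markers of fibroblasts (7 genes, none called) were 2555 to 2714 in DMSO and 5726, 5591 and 2610 with αKG, and those of the epicardium (6 genes, none called) were 415 to 454 and 911, 907 and 424. In αKG replicate 3, 4 of the 6 epicardial markers were below every DMSO library and 2 were above. Their median log2 difference from the DMSO mean was -0.64 in that library. Summed endothelial markers were 1370 to 1511 in DMSO and 696, 624 and 915 with αKG, with 5 of 7 genes called lower, and Cldn5 was listed at 0 in 2 libraries. Summed mural markers were 3106 to 3211 and 3580, 3123 and 3349, with 1 of 6 genes called, and the 4 macrophage markers listed, of 7, summed to 22 to 41 in every library. Without αKG replicate 3, 5 of 7 fibroblast and 6 of 6 epicardial markers were called, all higher, with median log2 fold changes of 0.66 and 2.08. CM markers then had 2 higher and 1 lower call, endothelial markers 1 and 5, and mural markers 2 and 1. In that fit 19.3% of all genes were called higher and 17.9% lower. In such bulk samples, fewer cells of a type and less RNA per cell cannot be told apart.

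None of the 10 p53 genes was called after αKG treatment, by limma with all 6 libraries. Of all genes measured, 3.78% were called, 2.83% higher and 0.952% lower, and among the 10183 genes with a mean of at least 50, which all 10 p53 genes reach, 5.87% were called. By limma-voom on estimated reads, 0 of the 10 were called as well, and at an unadjusted p under 0.05 there was 1, Zmat3, where 28.1% of all genes and 37.0% of those with a mean of at least 50 passed. In none of the 10 did the DMSO and αKG libraries fall apart without overlap, whereas 28.3% of all genes and 39.3% of those with a mean of at least 50 did so. The median log2 fold change of the 10 genes was 0.01, beside 0.04 for all genes and -0.07 for genes with a mean of at least 50. These medians were 0.16, 0.06 and -0.10 without αKG replicate 3.

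**Figure D1:**
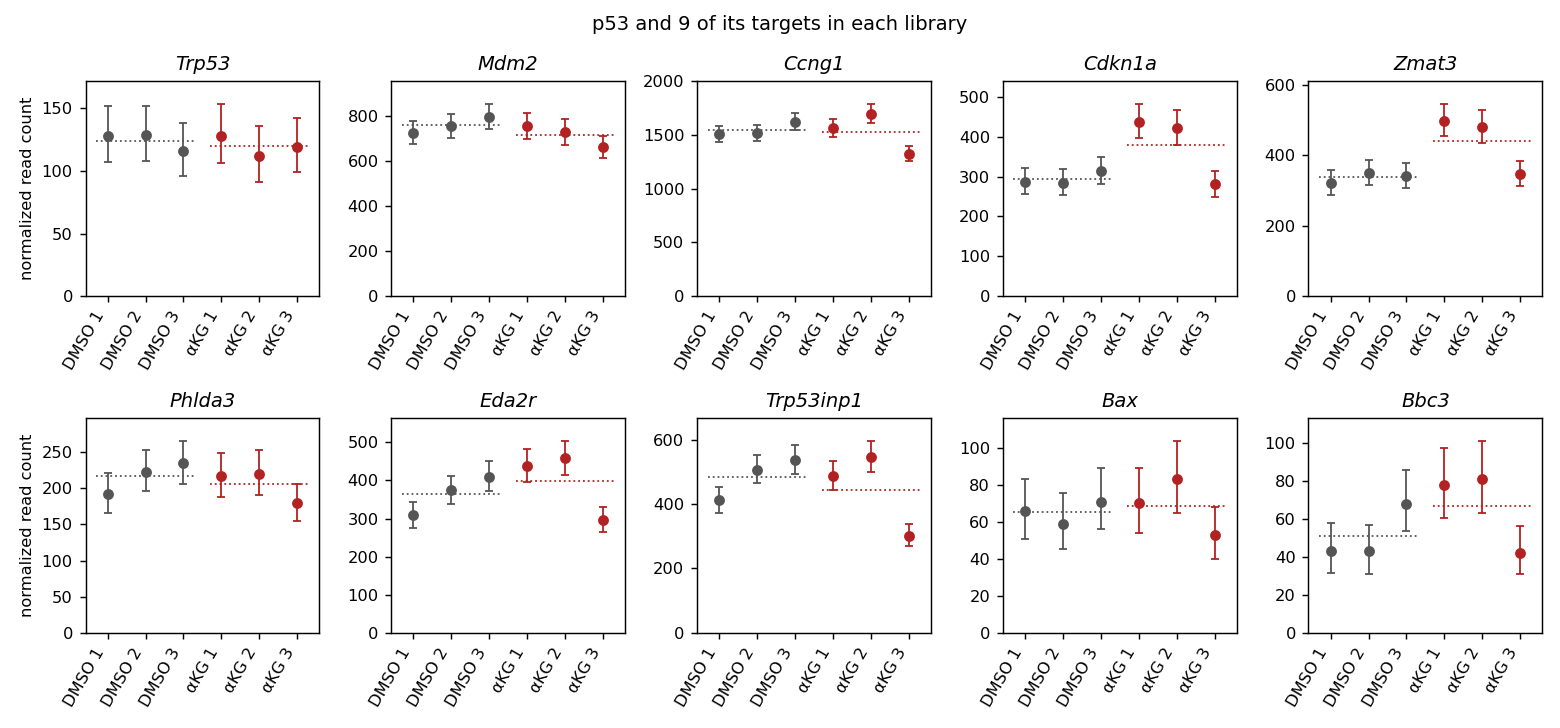
Normalized read counts of Trp53 and 9 p53 targets (vertical axes, each from 0) in the 3 DMSO libraries (grey) and the 3 αKG libraries (red), with bars for the 95% counting interval and dotted lines for group means. In Cdkn1a and Zmat3, αKG replicates 1 and 2 sit above the DMSO libraries and replicate 3 sits at their level, while in Trp53inp1 replicate 3 (302) sits below all other libraries.

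Levels per kilobase of exon place Ccng1 far above the rest, with 441.0 ± 18.4 (SD, n = 3) normalized counts per kilobase in DMSO. Mdm2 (149.4 ± 7.2) and Phlda3 (139.0 ± 14.2) followed, and their DMSO ranges overlapped. Below them came Cdkn1a at 83.1 ± 4.6, Trp53inp1 at 75.0 ± 10.1 and Eda2r at 61.8 ± 8.7, in which each neighbouring pair overlapped in range although Cdkn1a and Eda2r did not. Bax stood apart at 41.5 ± 3.8. The lowest were Trp53 (30.7 ± 1.8), Zmat3 (29.6 ± 1.3) and Bbc3 (24.2 ± 6.8), whose ranges overlapped. The 4 most abundant genes thus encode a cyclin, the p53 ubiquitin ligase, an AKT inhibitor and a CDK inhibitor, and the apoptosis genes Bax and Bbc3 were among the 4 least abundant. The level of Bax may be understated, because it shares 915 bases with another gene on its strand and reads in more than 1 gene were not counted.

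Neither gene of the core feedback loop passed the test. Trp53 (ENSMUSG00000059552, chr11:69580359-69591873, plus strand) was at 128, 129 and 116 normalized counts in DMSO and at 128, 112 and 119 with αKG. The ranges overlapped almost fully, and the log2 fold change was -0.06 ± 0.12 (SE), with a 95% interval of -0.33 to 0.22 and an adjusted p of 0.792. Mdm2 (ENSMUSG00000020184, chr10:117688875-117710758, minus strand), whose product ubiquitinates p53, was at 725, 755 and 798 in DMSO and at 754, 728 and 661 with αKG. Its log2 fold change was -0.09 ± 0.08, with an interval of -0.26 to 0.08 (adjusted p = 0.461), and its αKG libraries lay within the DMSO range in replicates 1 and 2 and below it in replicate 3. Without αKG replicate 3 the values were -0.05 for Trp53 and -0.03 for Mdm2, and neither passed (adjusted p = 0.716 and 0.642).

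The target known best for stopping the cell cycle had higher values in 2 of the 3 αKG libraries. Cdkn1a (ENSMUSG00000023067, chr17:29090976-29100727, plus strand) encodes p21, which inhibits cyclin-dependent kinases and is the best known mediator of p53-dependent arrest. It was at 287, 285 and 314 in DMSO and at 438, 422 and 281 with αKG, so that αKG replicates 1 and 2 lay above every DMSO library and replicate 3 lay level with the lowest of them. The group means were 295.3 ± 16.2 and 380.3 ± 86.4 (SD, n = 3). The log2 fold change of 0.34 ± 0.16 (interval -0.01 to 0.69) did not pass (adjusted p = 0.189). Without αKG replicate 3 it was 0.54 ± 0.06 with an adjusted p of 0.00212. A transcript of unconfirmed coding status on the opposite strand, AC167363.2, shares 1046 bases with Cdkn1a, and the strand setting of the counting is not given in the sources used here.

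Zmat3 showed the same arrangement of libraries. The gene (ENSMUSG00000027663, chr3:32334792-32366014, minus strand) encodes an RNA-binding zinc finger protein that acts in the growth-suppressive arm of the p53 program. It was at 321, 351 and 342 in DMSO and at 498, 480 and 347 with αKG, with replicates 1 and 2 above every DMSO library and replicate 3 within their range. The log2 fold change was 0.37 ± 0.13 (interval 0.07 to 0.66, adjusted p = 0.116), and without αKG replicate 3 it was 0.53 ± 0.06 with an adjusted p of 0.00173. Cdkn1a and Zmat3 were the 2 of 10 genes called when αKG replicate 3 was left out, both higher. In that comparison 37.2% of all genes were called (19.3% higher and 17.9% lower), as were 50.9% of genes with a mean of at least 50 (19.4% higher), so 2 of 10 was below the background. The summed fibroblast and epicardial markers were also higher in αKG replicates 1 and 2 than in replicate 3 and DMSO, and their part in the Cdkn1a and Zmat3 values was not tested.

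Ccng1 and Phlda3 did not pass either, with intervals that included 0. Ccng1 (ENSMUSG00000020326, chr11:40748552-40755311, minus strand), the gene of cyclin G1, which recruits a phosphatase to MDM2, was at 1506, 1517 and 1623 in DMSO and at 1562, 1699 and 1323 with αKG. Its log2 fold change was -0.03 ± 0.09 (interval -0.22 to 0.17, adjusted p = 0.866), and the αKG libraries lay on both sides of the DMSO range. Phlda3 (ENSMUSG00000041801, chr1:135766119-135769136, plus strand), whose product competes with AKT for membrane lipids and so dampens AKT signalling, was at 192, 223 and 235 in DMSO and at 217, 220 and 179 with αKG, where replicate 3 lay lowest, with a counting interval that overlapped that of the lowest DMSO library. The log2 fold change was -0.08 ± 0.12 (interval -0.36 to 0.20, adjusted p = 0.702).

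The proapoptotic targets were spread more widely. Bbc3 (ENSMUSG00000002083, chr7:16308393-16318205, plus strand) encodes PUMA, a BH3-only protein that triggers mitochondrial apoptosis, and was at 43, 43 and 68 in DMSO and at 78, 81 and 42 with αKG. αKG replicates 1 and 2 were above every DMSO library and replicate 3 was level with the lowest of them, and the log2 fold change of 0.35 ± 0.29 had an interval of -0.29 to 1.00 (adjusted p = 0.441). Without αKG replicate 3 it was 0.65 ± 0.22 and missed the threshold (adjusted p = 0.0594). Bax (ENSMUSG00000003873, chr7:45461697-45466898, minus strand), the pore-forming BCL-2 family member, was at 66, 59 and 71 in DMSO and at 70, 83 and 53 with αKG. The log2 fold change was 0.05 ± 0.20 (interval -0.39 to 0.49, adjusted p = 0.882), the groups overlapped, and the gene shares 915 bases with another annotated gene on its own strand, Gm45808, and reads that fall in more than 1 gene were not counted.

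Eda2r (ENSMUSG00000034457, chrX:97333840-97377216, minus strand), a death-domain-lacking receptor of the TNF receptor family that binds ectodysplasin A2, was at 309, 374 and 410 in DMSO and at 438, 458 and 296 with αKG. Replicates 1 and 2 lay above every DMSO library and replicate 3 was level with the lowest of them. Its log2 fold change was 0.11 ± 0.17 (interval -0.27 to 0.48, adjusted p = 0.695) and 0.31 ± 0.12 without αKG replicate 3 (adjusted p = 0.0831). Trp53inp1 (ENSMUSG00000028211, chr4:11156431-11174379, plus strand) encodes a stress protein that promotes p53 phosphorylation and autophagy. It was at 412, 507 and 537 in DMSO and at 487, 546 and 302 with αKG, with a log2 fold change of -0.16 ± 0.20 (interval -0.60 to 0.28, adjusted p = 0.610). Relative to the DMSO mean, αKG replicate 3 was at -0.67 on the log2 scale, the farthest of the 6 libraries for this gene, and the other 2 αKG libraries were at 0.01 and 0.18.

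**Figure D2:**
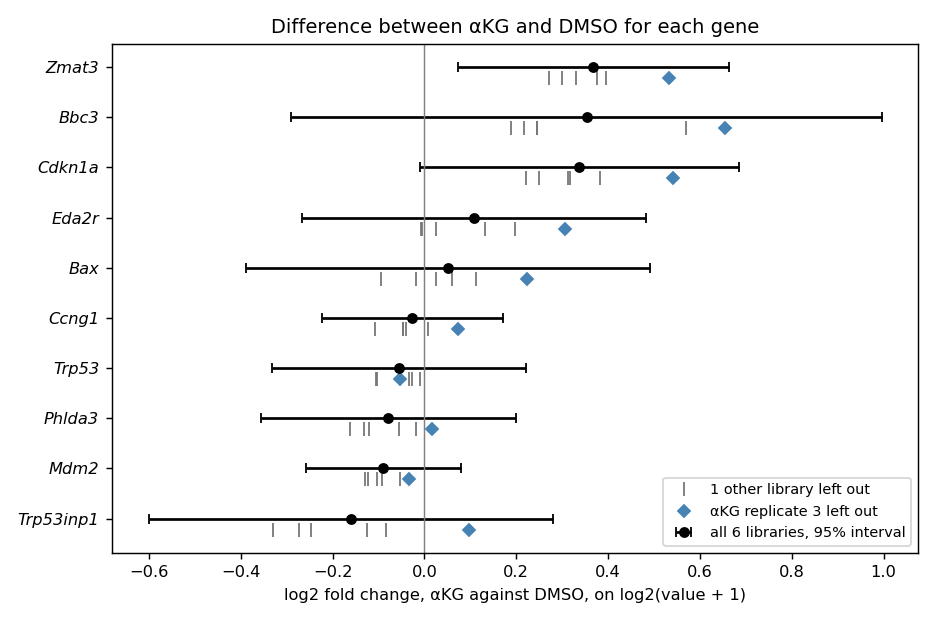
Log2 fold change of αKG against DMSO for each of the 10 genes (horizontal axis), with points and bars for all 6 libraries with the 95% interval, ticks for fits that leave out 1 other library and diamonds for the fit without αKG replicate 3. The diamonds lie at or to the right of the points, and reach 0.54 for Cdkn1a and 0.53 for Zmat3.

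The 10 genes separated the αKG libraries from each other. αKG replicate 3 was the lowest of all 6 libraries in 8 of the 10 genes (the exceptions were Trp53 and Zmat3), whereas it was the lowest in 10.9% of all genes and 12.4% of those with a mean of at least 50. In 6 of these 8 genes its 95% counting interval overlapped that of the next lowest library, and in 2, Ccng1 and Trp53inp1, it did not. αKG replicates 1 and 2 exceeded every DMSO library in 4 and 7 of the 10 genes, and replicate 3 did so in 0. The median difference from the DMSO mean over the 10 genes was 0.07, 0.26 and -0.24 on the log2 scale in αKG replicates 1, 2 and 3, and -0.07, 0.02 and 0.11 in the DMSO replicates. The low place of αKG replicate 3 in the 10 genes was noticed after the values were seen. Among 40 other direct p53 targets, described below, αKG replicate 3 was the lowest library in 11. It lay below every DMSO library in 21 of the 40 and above every one in 9, with a median difference of -0.06.

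αKG replicate 3 and the DMSO libraries took opposite places in 26 cell cycle genes, whereas αKG replicates 1 and 2 had medians above the DMSO mean in both lists. Their median difference from the DMSO mean was 0.52, -0.04 and -0.39 in DMSO replicates 1, 2 and 3 and 0.50, 0.45 and 0.91 with αKG. αKG replicate 3, the lowest library for 8 of the 10 p53 genes, was the highest of the 6 in 21 of 26 cell cycle genes. It was the highest in 13.0% of all genes and 16.8% of those with a mean of at least 50. DMSO replicate 3 was the lowest of the DMSO libraries in 25 of 26 cell cycle genes (28.0% of all genes and 32.6% of those with a mean of at least 50), and it was the highest of the DMSO libraries in 8 of the 10 p53 genes (28.8% and 32.9%). The genes of a list move together, so these counts describe 6 libraries and are not separate observations. Whether cycling had a part in the level of the p53 targets was not tested.

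**Figure D3:**
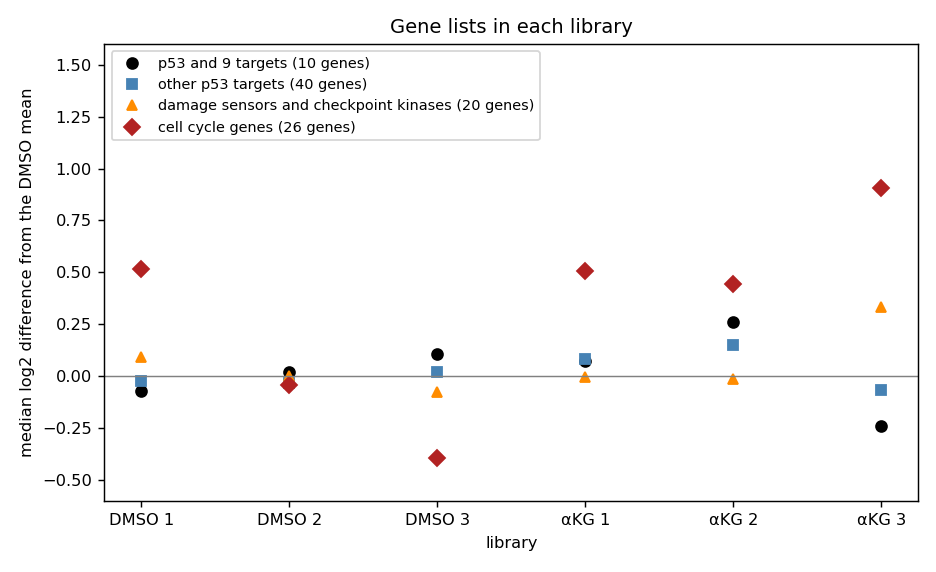
Median log2 difference from the DMSO mean (vertical axis) in each of the 6 libraries (horizontal axis) for the 10 p53 genes, 40 other p53 targets, 20 damage sensors and checkpoint kinases, and 26 cell cycle genes. In αKG replicate 3 the cell cycle median is at 0.91 and the median of the 10 p53 genes at -0.24.

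Cycling itself was higher with αKG in 3 of the 26 genes at the threshold, none lower. Of all genes 2.83% were called higher, and of those with a mean of at least 50, 5.87% were called in either direction. The log2 fold change was positive in 26 of 26. It was positive in 10611 of all 20066 genes and in 4058 of the 10183 with a mean of at least 50. The DMSO and αKG libraries did not overlap in 9 of the 26. They did not overlap in 28.3% of all genes and 39.3% of those with a mean of at least 50. αKG replicates 1, 2 and 3 exceeded every DMSO library in 11, 9 and 26 of the 26 genes. The median log2 fold change of the 26 was 0.61, and 0.48 without αKG replicate 3. The median was 0.39 without DMSO replicate 3 and 0.90 without DMSO replicate 1, whose own median lay level with αKG replicates 1 and 2. Mki67, the gene of the proliferation antigen Ki67, was at 2738, 2034 and 1601 in DMSO and at 3632, 3570 and 3516 with αKG, a log2 fold change of 0.78 ± 0.15 (adjusted p = 0.0340). Top2a, a topoisomerase that untangles chromosomes in mitosis, rose by 1.02 ± 0.19 (adjusted p = 0.0289), and the spindle checkpoint kinase gene Bub1 rose by 1.16 ± 0.25 (adjusted p = 0.0422). Ccna2, a cyclin of S phase and G2, was at 527, 312 and 255 and at 495, 518 and 666 (adjusted p = 0.104). The replication licensing gene Mcm3 was at 450, 382 and 330 and at 397, 359 and 674, so that the αKG libraries exceeded the DMSO range in replicate 3 and lay within it in the others.

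The remaining CDK inhibitors and pocket proteins, a list of 9 genes, had 0 calls by limma and by limma-voom, and 2 at an unadjusted p under 0.05, with a median log2 fold change of 0.07. Over all genes 3.78% were called, and 28.1% passed at an unadjusted p under 0.05. Leaving out αKG replicate 3 gave 2 calls, both higher, and the median was -0.02. In that comparison 37.2% of all genes were called. Cdkn1b, the gene of p27, was at 398, 356 and 385 in DMSO and at 300, 356 and 358 with αKG (-0.17 ± 0.10, adjusted p = 0.278). Rbl2, which encodes the pocket protein p130, was at 724, 710 and 716 and at 664, 657 and 729 (-0.07 ± 0.07, adjusted p = 0.529).

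Of 40 further direct p53 targets, 4 were called, all higher with αKG, and 17 passed an unadjusted p under 0.05 (11 higher and 6 lower). Of all genes 3.78% were called (2.83% higher), and 5.87% of those with a mean of at least 50. At an unadjusted p under 0.05 these shares were 28.1% and 37.0%. The median of the 40 was 0.01, as for the 10 genes above. Pidd1, which encodes a death-domain scaffold that activates caspase-2, was at 33, 28 and 23 in DMSO and at 91, 63 and 65 with αKG, a log2 fold change of 1.35 ± 0.23 (adjusted p = 0.0248). Btg2, an antiproliferative regulator of mRNA deadenylation, was at 151, 155 and 179 and at 329, 321 and 211 (0.80 ± 0.17, adjusted p = 0.0405). All αKG libraries exceeded all DMSO libraries in both genes.

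Ckap2, a spindle protein of mitotic cells, was at 298, 182 and 178 in DMSO and at 438, 420 and 326 with αKG (0.88 ± 0.20, adjusted p = 0.0445). Its DMSO libraries had the order of the cell cycle genes, with replicate 1 highest. Plk2, a polo-like kinase gene induced by stress, was at 393, 399 and 407 and at 574, 625 and 468 (0.46 ± 0.11, adjusted p = 0.0465). The 2 most abundant targets per kilobase that were not called were Perp, a desmosomal protein gene, at 945, 902 and 900 and at 736, 809 and 836 (adjusted p = 0.103), and Tob1, an antiproliferative relative of Btg2, at 481, 486 and 553 and at 406, 439 and 425 (adjusted p = 0.0964).

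**Figure D4:**
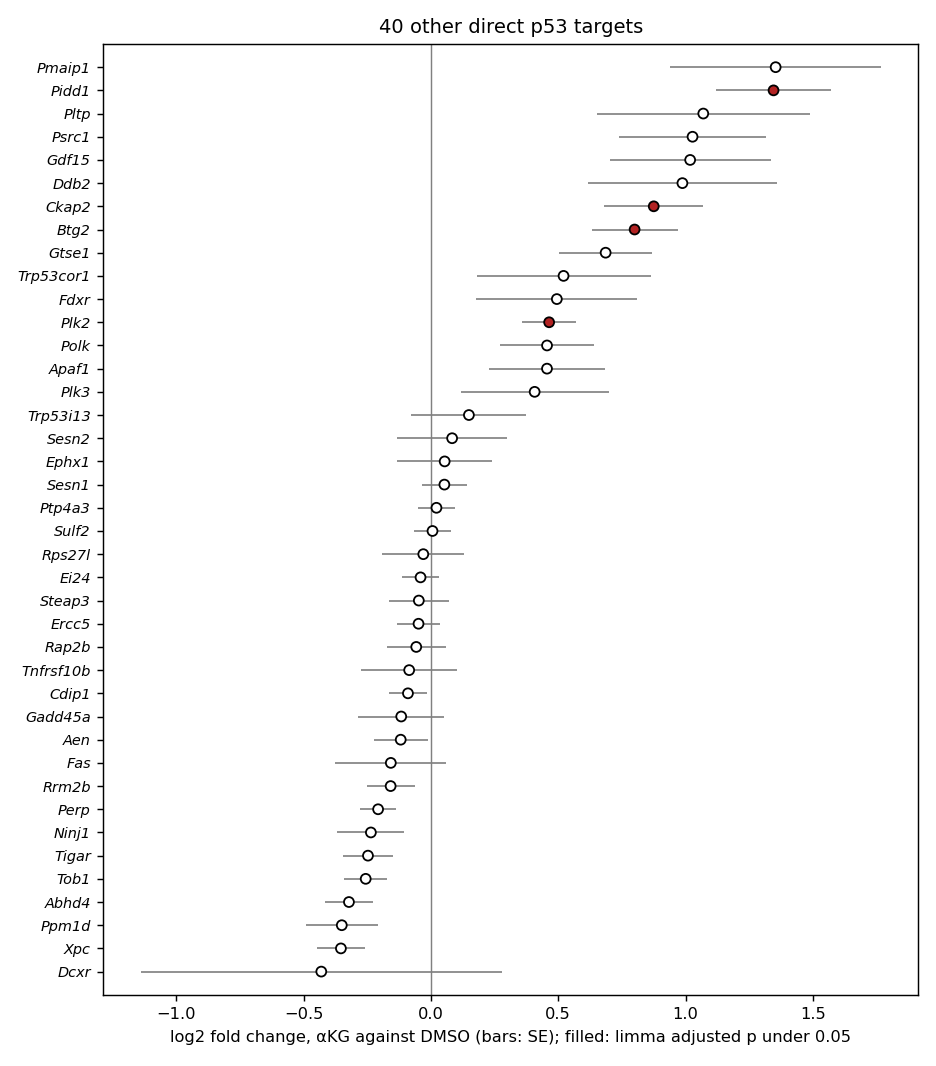
Log2 fold change of αKG against DMSO (horizontal axis, bars for SE) of 40 other direct p53 targets, sorted by value, with filled points for the 4 called genes. The called genes, Pidd1, Ckap2, Btg2 and Plk2, are higher with αKG, and 21 of the 40 values are above 0.

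Without αKG replicate 3, 15 of the 40 were called higher and 7 lower, with a median of 0.11. Of all genes 19.3% were then called higher and 17.9% lower. Among genes with a mean of at least 50, 19.4% were called higher. In that comparison 37.2% of all genes were called, and 50.9% of those with a mean of at least 50. Perp and Tob1, described above, were among the 7 called lower by limma in that fit (adjusted p = 0.0152 and 0.0410). The genes Pmaip1, Psrc1 and Gdf15 were picked for mention after their values were seen, and all 3 were higher in αKG replicates 1 and 2. Pmaip1, the gene of the BH3-only protein NOXA, was at 23, 16 and 18 in DMSO and at 70, 75 and 23 with αKG, and Psrc1, a spindle protein gene, at 56, 43 and 56 and at 153, 120 and 64. Gdf15, a secreted stress factor, was at 22, 17 and 14 and at 42, 47 and 24. None of the 3 passed with all libraries (adjusted p = 0.0851, 0.0718 and 0.0867). Pmaip1 and Psrc1 had the arrangement of Cdkn1a, Zmat3 and Bbc3, with αKG replicate 3 close to DMSO. Across all genes, too, αKG replicate 3 correlated more closely with DMSO than with the other αKG libraries, so these picked genes add nothing separate. Sequence matches to the element were present in 5 of the 32 other targets that had a promoter window, and an exact half-site in 11 of the 32.

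Regulators and partners of p53 gave 1 higher and 1 lower call among the 22 listed genes of 23 (Trp73 has no row), with a median of -0.07. Of all genes 3.78% were called, and 5.87% of those with a mean of at least 50. Leaving out αKG replicate 3 gave 3 higher and 6 lower calls, where 37.2% of all genes and 50.9% of those with a mean of at least 50 were called. Mdm4, which encodes the MDM2 relative that binds and inhibits p53, was at 409, 397 and 364 in DMSO and at 774, 765 and 464 with αKG, a log2 fold change of 0.74 ± 0.17 (adjusted p = 0.0494). It was higher in every αKG library, least so in replicate 3. Ppp1r13b, the gene of ASPP1, which directs p53 towards apoptosis genes, fell from 399, 404 and 404 to 254, 236 and 337 (-0.56 ± 0.13, adjusted p = 0.0454). The nucleolar protein genes Npm1 and Ncl, whose products bind MDM2 or p53 under nucleolar stress, had log2 fold changes of 0.06 ± 0.08 and 0.10 ± 0.06 and did not pass (adjusted p = 0.614 and 0.264).

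The genes that sense and signal DNA damage had 4 higher and 0 lower calls among the 20 of 22 listed (H2afx and Claspn have no row under these symbols), with a median of 0.12. Of all genes 2.83% were called higher and 0.952% lower, and 5.87% of those with a mean of at least 50 were called. Without αKG replicate 3 there were 6 higher and 5 lower calls and the median was -0.01, so the calls were no longer in 1 direction. In that comparison 37.2% of all genes were called, and 50.9% of those with a mean of at least 50. Atm, the kinase activated by double-strand breaks, was at 407, 396 and 386 in DMSO and at 607, 635 and 530 with αKG (0.57 ± 0.09, adjusted p = 0.0159). Prkdc, the catalytic subunit of DNA-dependent protein kinase, was at 398, 395 and 390 and at 553, 610 and 508 (0.49 ± 0.09, adjusted p = 0.0268). In both genes the 2 groups were apart, with αKG replicate 3 the nearest to DMSO.

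Brca1, which acts in homologous recombination, was at 244, 188 and 131 in DMSO and at 370, 338 and 541 with αKG (1.16 ± 0.23, adjusted p = 0.0357). Chek2, the kinase downstream of ATM, was at 53, 50 and 34 and at 87, 79 and 80 (0.85 ± 0.20, adjusted p = 0.0495). Both had the DMSO order of the cell cycle genes, with replicate 1 highest and replicate 3 lowest. Rad50 and Nbn, 2 subunits of the complex that binds broken ends, did not pass, with 711, 775 and 808 against 739, 787 and 852 (adjusted p = 0.695) and 335, 280 and 292 against 221, 254 and 383 (adjusted p = 0.697).

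Of the 20 other genes of the mitochondrial apoptosis route, 1 was called, Bcl2, whose product is antiapoptotic. Over all genes 3.78% were called, and 5.87% of those with a mean of at least 50. Bcl2 was at 312, 301 and 283 in DMSO and at 506, 493 and 477 with αKG, a log2 fold change of 0.72 ± 0.08 (adjusted p = 0.00616), with no overlap and all 3 αKG libraries close together. At an unadjusted p under 0.05, 1 of the 20 was higher and 4 were lower. Of all genes 28.1% passed, and 37.0% of those with a mean of at least 50. Without αKG replicate 3 there were 2 higher and 6 lower calls. In that comparison 37.2% of all genes were called, and 50.9% of those with a mean of at least 50. The counts of this list were thus near or below the background. The list median was -0.07, -0.13 without αKG replicate 3 and -0.18 with quantile scaling. Mcl1, another antiapoptotic member, was at 926, 972 and 992 and at 801, 879 and 801 (-0.22 ± 0.07, adjusted p = 0.0849), and Bnip3l, a mitophagy receptor gene, was at 380, 356 and 380 and at 351, 392 and 359 (adjusted p = 0.899).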

How the data were processed

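RNA from 6 libraries (3 DMSO, 3 αKG) was sequenced with a stranded total RNA kit. The submitters' processing notes name FastQC 0.11.8, Trimmomatic 0.39, STAR 2.7.10a, featureCounts 2.0.3 and DESeq2 1.30.1 on mm10 (GRCm38.p5), and per the methods reads that overlap several genes or map to several places were not counted. The deposited table holds counts divided by size factors and rounded to whole numbers by the authors, treated here as a score and not as raw counts; the authors' columns of fold changes and p-values were not used. Depth was estimated from the spacing of low values (19 of 20 simulated size factors recovered within 0.3%). Values were tested as log2(value + 1) with limma 3.58.1 in R 4.3.3 (empirical Bayes with a mean trend), adjusted by Benjamini-Hochberg over all 20066 genes without a filter. As a check of the fit on simulated data with 20066 genes, 84 of 100 genes changed 2-fold were called, and 3 unchanged genes were. This rate cannot be carried over to the real libraries, as αKG replicate 3 correlated more closely with DMSO than with the other αKG libraries. A gene without a call may therefore still have changed. The log2 fold changes understate changes of low genes. Counting intervals, from estimated reads, are 95% Poisson intervals and cover counting error only. Exon lengths and positions came from GENCODE M21 (GRCm38), and promoters from RefSeq.

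The p53 genes and the lists beside them were chosen with earlier results of these data known. The text names all 10 p53 genes and, from each other list, up to 4 genes past the threshold by p and the 2 most abundant per kilobase of the rest, with Mki67 in any case; others are said to be chosen later. Alternatives were a mean filter of 10, a pseudocount of 0.1, no mean trend, equal totals, quantile scaling, a replicate block, leaving out each library, unadjusted p, and limma-voom on estimated reads.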

Additional observations from a re-analysis of the deposited data

How the results depend on the processing

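No p53 gene was called under the 13 alternatives except Cdkn1a and Zmat3 without αKG replicate 3. The count of called genes was 759 of 20066, and it was 346 with a pseudocount of 0.1, 342 by limma-voom, 27 with no mean trend, 872 with a mean of at least 10, 915 at equal totals, 641 with quantile scaling and 5648 at an unadjusted p. At an unadjusted p the calls were 1 of the 10 p53 genes, 17 other targets, 8 regulators, 5 of the BCL-2 family, 8 damage signalling genes, 14 cell cycle genes and 2 CDK inhibitors. With a pseudocount of 0.1 they were 1 other target, 0 regulators and 2 damage signalling genes. By limma-voom they were 1 other target and 0 regulators, with quantile scaling 1 regulator, and with no mean trend 0 in every list. The labels do not say whether libraries of the same replicate number are paired. The correlation of deviations from the group means was -0.07, 0.15 and -0.04 for numbers 1, 2 and 3 over 10183 genes. With 3 libraries per group and αKG replicate 3 apart from the other αKG libraries, these values cannot decide it. With the replicate number as a block, 46 genes were called, with 0 other targets, 0 regulators, 0 damage signalling genes and 0 cell cycle genes among them, and it changed no call of the p53 genes. Leaving out each library in turn gave 0 to 7466 called genes, 0 to 2 p53 genes, 0 to 22 other targets, 0 to 9 regulators, 0 to 8 of the BCL-2 family, 0 to 11 damage signalling genes, 0 to 5 cell cycle genes and 0 to 2 CDK inhibitors. The upper end came without αKG replicate 3 for each but the cell cycle genes (without DMSO replicate 1), and without αKG replicate 1 or 2 there were 0 calls. Log2 fold changes turned sign without 1 library for Ccng1 (-0.11 to 0.074), Bax (-0.10 to 0.22), Phlda3 (-0.16 to 0.017), Eda2r (-0.0071 to 0.31), Trp53inp1 (-0.33 to 0.10), Bnip3l (-0.067 to 0.013), Rad50 (-0.0018 to 0.10), Nbn (-0.35 to 0.049) and Mcm3 (-0.025 to 0.43), and with quantile scaling for Bax (-0.046) and Bnip3l (0.019). Each called gene named outside the 10 lost its call in 5 or more of the 13 alternatives. The causes were not tested. Of 130 values of the p53 genes under an alternative, 119 kept their direction and side of the threshold. Counting error limits Bax and Bbc3 most, at 42 to 83 normalized counts per library.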
